A study of Homo sapiens with 38 samples.

Results

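Naive Shef6 human embryonic stem cells that had spent 6 days in mTeSR were compared with the same cells after 6 days in N2B27. The comparison rests on the 4 libraries labelled as mTeSR or N2B27 at day 6 on Geltrex, 2 per medium, of 38 libraries in all, and these were taken by their labels. The series followed the exit of naive cells from PXGL, the medium that holds them in the naive state, into several media. Expression was measured with QuantSeq, a 3′ method whose reads come from the tail end of each messenger RNA. All 4 libraries belonged to experiment Ex1, and in both groups the starting cells were naive Shef6 adapted to serum coating without feeders. By the study's methods, cells were seeded on Geltrex, a basement membrane matrix, with a ROCK inhibitor on day 0, which was withdrawn from day 1. N2B27 is a basal medium with the N2 and B27 supplements, without added growth factors. mTeSR is a commercial medium for primed stem cells that contains FGF2 and a ligand of the TGFβ and Activin branch. The material was therefore 1 cell line in 1 experiment. The replicates were parallel libraries that the study calls technical in most places and biological in another, without naming separate cultures. The p-values measure the spread between libraries of the same group, estimated over all 38 libraries of the series and not from these 4 alone. That spread may be technical.

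Naive cells resemble the epiblast before implantation. On leaving the naive state they pass through capacitation, during which naive factors such as KLF4 are lost, primed factors such as ZIC2 are gained, and competence to answer germ layer signals is acquired. FGF signals through ERK, Activin and Nodal signal through SMAD2 and SMAD3, and together with WNT they are the classical inducers of the primitive streak, from which mesoderm and definitive endoderm arise.

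Total counts were 4430286 and 4554903 in mTeSR and 4659588 and 4751240 in N2B27, within the series range of 3038046 to 5612354. Mitochondrial genes took 2.11% to 2.63% of counts and ribosomal protein genes 9.33% to 10.1%. Each library correlated best with its own replicate (Pearson's r across genes 0.983 in mTeSR and 0.981 in N2B27), and none of the 4 stood apart. A count of 3, taken as the floor, corresponded to 0.604 to 0.664 CPM (counts scaled to a common library size).

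Both thresholds had to be passed for a call: an adjusted p-value below 0.05 (Benjamini-Hochberg, from edgeR's quasi-likelihood test) and a log2 fold change beyond 1 in either direction. Of 16674 genes tested, 437 were called (2.62%), 204 higher in mTeSR (1.22%) and 233 lower (1.4%). By the adjusted p-value alone 1510 genes passed (9.06%), 774 higher (4.64%) and 736 lower (4.41%). The median log2 fold change over all genes was -0.01. For all 437 called genes the libraries of the 2 media did not overlap, as was the case for 56.5% of all genes tested. The called genes had a median change of 2.63-fold, 92 of them changed by more than 4-fold, and 116 reached a mean of 20 CPM in one of the media. In 31 of the 437 one medium was at the floor, so that the size of their fold is uncertain. The count was 221 without mTeSR replicate 2 and 256 without N2B27 replicate 2, and it was 318 and 319 without mTeSR replicate 1 or N2B27 replicate 1.

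**Figure D1:**
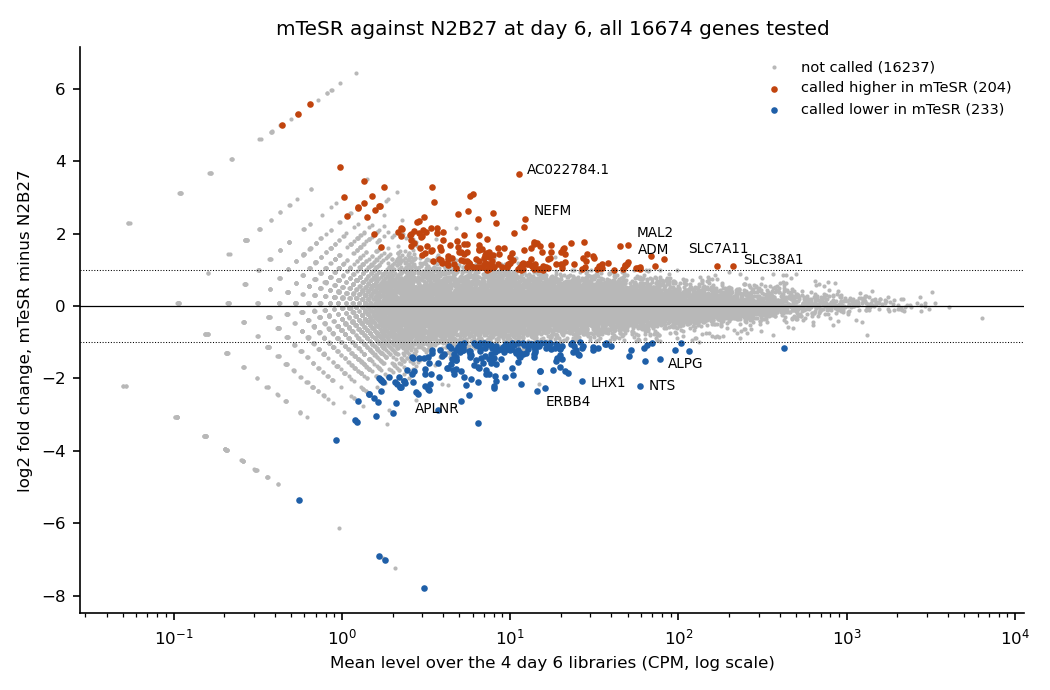
Log2 fold change of mTeSR minus N2B27 at day 6 (vertical axis) against the mean level over the 4 libraries (CPM, log scale) for 16674 genes. Red points are the 204 genes called higher in mTeSR, blue points the 233 called lower, grey points the rest, and dotted lines mark log2 values of -1 and 1. AC022784.1 lies highest among the labelled genes and ERBB4 and NTS are among the lowest.

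Genes of general pluripotency were detected in both media without a called difference. NANOG stood at 1084 and 1121 CPM in mTeSR and at 1007 and 969 CPM in N2B27, a fitted difference of 0.16 on the log2 scale (SE 0.10, adjusted p 0.394). POU5F1, which encodes OCT4, stood at 410 and 392 CPM in mTeSR and at 356 and 378 CPM in N2B27 (adjusted p 0.843). None of the 5 general markers was called, and SOX2 alone passed the adjusted p-value, at 310 and 272 CPM in mTeSR against 210 and 222 CPM in N2B27 (1.35-fold, adjusted p 0.0155).

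KLF4, a naive pluripotency factor and the only called member of 18 naive genes (5.56%, against 2.62% of all genes), was higher in mTeSR. It stood at 29.2 and 29.7 CPM in mTeSR and at 8.75 and 12.1 CPM in N2B27, 2.82-fold apart (adjusted p 1.43e-05). At day 4 KLF4 had been at 47.5 and 33.4 CPM in mTeSR and 26.0 and 27.4 CPM in N2B27. In N2B27, where 3.89% of all genes were called from day 4 to day 6, it fell by 1.35 on the log2 scale (adjusted p 3.09e-05), and in mTeSR, where 2.91% were, the same difference was -0.46 (adjusted p 0.108). The change of the medium difference of KLF4 from day 4 to day 6, tested directly, was 0.90 and was not called (adjusted p 0.256). SUSD2, a surface marker of naive cells, went the other way within the naive list: 37.6 and 39.4 CPM in mTeSR against 64.2 and 75.6 CPM in N2B27 (1.81-fold, adjusted p 0.00125, under the fold limit). The median of the 18 naive genes was -0.01, with 9 values above and 9 below 0.

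ZIC2, a transcription factor gained during capacitation, was lower in mTeSR, at 64.8 and 71.8 CPM against 147 and 129 CPM in N2B27 (2.02-fold, adjusted p 1.22e-05). It was the single call among 18 primed or formative genes tested (5.56%, against 2.62% of all genes), of which 4 were higher and 3 lower by the adjusted p-value (38.9%, against 9.06% of all genes). ZIC2 rose in both media from day 4, by 1.03 in mTeSR and 1.02 in N2B27 on the log2 scale. Its log2 fold change between media was -0.95 without mTeSR replicate 1 and -0.92 without N2B27 replicate 1, just short of the fold limit.

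Genes of the primitive streak, mesoderm and endoderm included 7 that were lower in mTeSR. Of 15 streak and mesoderm genes tested, 4 were called lower and 1 higher (33.3% called, against 2.62% of all genes), with a median log2 fold change of -0.61. Of 16 endoderm and hypoblast genes, 3 were called lower and none higher (18.8% called), 15 had negative values, and the median was -0.58 against -0.01 over all genes. In bulk RNA, fewer cells of a type and less RNA per cell cannot be told apart.

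LHX1, a LIM homeobox factor of anterior mesendoderm (chromosome 17, 36936785 to 36944612, in the GENCODE release 44 annotation of GRCh38), stood at 9.51 and 11.2 CPM in mTeSR and at 41.3 and 45.3 CPM in N2B27. It was 4.17-fold lower in mTeSR (log2 fold change -2.06, SE 0.31, adjusted p 4.01e-05). LHX1 had been at 0.706 and 4.14 CPM in mTeSR and 2.43 and 2.69 CPM in N2B27 at day 4, where the media overlapped. It rose from day 4 to day 6 by 4.07 on the log2 scale in N2B27 (adjusted p 2.64e-09) and by 2.07 in mTeSR (adjusted p 0.00377), and the change of the medium difference of LHX1, tested directly, was -1.99 and was not called (adjusted p 0.354).

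EOMES, a T-box factor needed for endoderm and streak formation (chromosome 3, 27715949 to 27722711), stood at 15 and 14.4 CPM in mTeSR and 30.4 and 38.3 CPM in N2B27, 2.33-fold lower in mTeSR (adjusted p 0.00232). APLNR, the apelin receptor of early mesoderm, stood at 1.33 and 2.16 CPM in mTeSR against 8.96 and 10.3 CPM in N2B27 (5.44-fold lower, adjusted p 0.000415). EVX1, a homeobox gene of the posterior streak, was low in both media, at 0.885 and 0.647 CPM in mTeSR and 3.54 and 3.22 CPM in N2B27. The calls of LHX1 and APLNR did not depend on a single library. The call of EOMES was lost without N2B27 replicate 2 (-1.04, adjusted p 0.0572), and that of EVX1 without mTeSR replicate 1 (adjusted p 0.0503), mTeSR replicate 2 (0.126) or N2B27 replicate 1 (0.0526).

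TBXT, MIXL1 and CER1 were not called and had smaller fitted changes than LHX1 or EOMES, though differences between genes were not tested. TBXT, or brachyury, stood at 38 and 49.6 CPM in mTeSR and 67.5 and 60.9 CPM in N2B27 (1.46-fold, adjusted p 0.0775). MIXL1, a homeobox gene of the streak, stood at 64.8 and 64.4 CPM in mTeSR and 91.9 and 105 CPM in N2B27 and passed the adjusted p-value but not the fold limit (1.53-fold, adjusted p 0.0265). CER1, a secreted inhibitor of Nodal, BMP and WNT, stood at 12.4 and 7.54 CPM against 17.3 and 17.5 CPM (adjusted p 0.11). Of the 15 streak and mesoderm genes tested, 3 had positive and 12 negative values, and NKX1-2 was the only one called higher. This homeobox gene stood at 79.9 and 81.7 CPM in mTeSR and 41.5 and 34.9 CPM in N2B27, 2.12-fold higher in mTeSR (adjusted p 7.26e-06), though its log2 fold change was 0.96 without N2B27 replicate 2.

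In the endoderm list the 3 called genes encode transcription factors. SOX17, which directs definitive endoderm and primitive endoderm, stood at 3.54 and 4.10 CPM in mTeSR and 13.8 and 15.9 CPM in N2B27 (3.86-fold lower, adjusted p 7.29e-05). GATA6, a GATA factor of the same lineages, stood at 3.1 and 3.02 CPM against 10.8 and 11.9 CPM (3.69-fold lower, adjusted p 0.00018). FOXA2, a forkhead factor of endoderm and the node, stood at 1.99 and 2.59 CPM against 7.71 and 8.26 CPM (3.46-fold lower, adjusted p 0.00477). Among these 3, only the call of FOXA2 was lost in a setting tried, without mTeSR replicate 1 (-1.62, adjusted p 0.0701). CXCR4, a chemokine receptor of definitive endoderm, was under the fold limit at 17.9 and 18.1 CPM in mTeSR and 28.5 and 37.1 CPM in N2B27 (adjusted p 0.00552). It passed the limit without N2B27 replicate 1 (-1.04).

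The summed level of the 18 streak and mesoderm genes was 289 and 310 CPM in mTeSR and 379 and 389 CPM in N2B27, with MSGN1 at 0 in all 4 libraries. That of the 20 endoderm and hypoblast genes was 490 and 470 CPM in mTeSR and 613 and 599 CPM in N2B27, with FOXA1 and TTR at 0. For the 18 trophectoderm genes it was 671 and 697 CPM in mTeSR and 751 and 756 CPM in N2B27, and none of the 13 tested was called. For 10 fibroblast genes it was 216 and 202 CPM in mTeSR and 249 and 248 CPM in N2B27, and none of the 7 tested was called. LUM, a defining fibroblast gene, was at 0 in all 4 libraries.

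**Figure D2:**
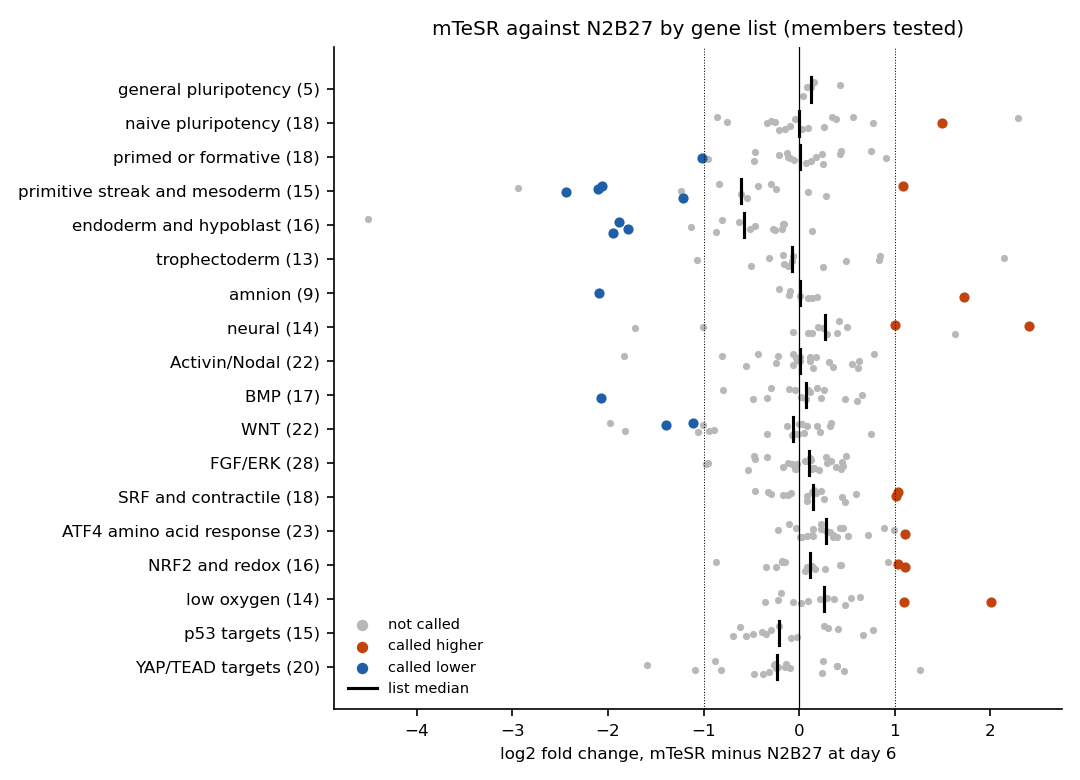
Log2 fold change of mTeSR minus N2B27 at day 6 (horizontal axis) for each tested member of 18 gene lists (rows, with the number of members tested). Red points are genes called higher in mTeSR, blue points called lower, grey points not called, and black bars list medians, which lie at -0.61 for primitive streak and mesoderm and -0.58 for endoderm and hypoblast.

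In the neural list the 2 called genes, both neurofilament chains, went in the opposite direction. Of 14 tested, NEFM and NEFL were called higher in mTeSR and none lower (14.3% called, against 2.62% of all genes and 1.22% in that direction). The median was 0.27, with 11 positive and 3 negative values and a lowest of -1.71. NEFM, the medium neurofilament chain (chromosome 8, 24913758 to 24919098), stood at 19 and 22.4 CPM in mTeSR and 3.96 and 3.83 CPM in N2B27, 5.29-fold higher (adjusted p 2.18e-06). NEFL, the light chain, stood at 53.7 and 56.7 CPM against 27.3 and 27.8 CPM, a difference at the fold limit (log2 fold change 1.00, adjusted p 0.00138). The call of NEFL did not hold without mTeSR replicate 2 (0.96), without N2B27 replicate 1 (0.99), with plain library totals (0.98) or with the libraries of Ex1 alone (0.996). Neurofilaments are structural proteins of the axon. The summed level of the 24 neural genes was 546 and 548 CPM in mTeSR and 430 and 439 CPM in N2B27, with NEUROG2 and FEZF1 at 0 in all libraries. The 10 members not tested included SOX1, with counts of 1 and 1 in mTeSR and 0 and 0 in N2B27. PAX3 had counts of 2 and 3 against 2 and 6, and MAP2 of 2 and 1 against 6 and 3.

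Among 9 amnion genes tested 1 was called in each direction (22.2% called, against 2.62% of all genes). IGFBP3, an insulin-like growth factor binding protein, stood at 8.41 and 8.62 CPM in mTeSR and 2.92 and 2.22 CPM in N2B27 (3.30-fold higher, adjusted p 0.00246). ISL1, a LIM homeobox factor, stood at 0.885 and 1.08 CPM in mTeSR and 4.17 and 4.43 CPM in N2B27 (4.29-fold lower, adjusted p 0.00996). Both calls depended on single libraries, since that of IGFBP3 was lost without N2B27 replicate 2 (adjusted p 0.0575) and that of ISL1 without N2B27 replicate 2 (0.0653), mTeSR replicate 1 (0.0928) or mTeSR replicate 2 (0.0887).

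mTeSR supplies FGF2 and a ligand of the TGFβ and Activin branch. None of 22 Activin and Nodal genes was called and their median was 0.01. NODAL, the ligand, stood at 185 and 173 CPM in mTeSR and 140 and 147 CPM in N2B27 (1.25-fold, adjusted p 0.235). LEFTY1, a feedback inhibitor of Nodal, stood at 111 and 122 CPM in mTeSR and 124 and 113 CPM in N2B27 (log2 fold change -0.03, SE 0.17, adjusted p 0.954). LEFTY2, its paralog, stood at 40.9 and 44.2 CPM against 34.0 and 32.4 CPM (adjusted p 0.403). Reads of LEFTY1 and LEFTY2 can be split between these near-identical genes, so the values of each are uncertain.

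None of 28 FGF and ERK genes was called, with 4 higher and 3 lower by the adjusted p-value (25%, against 9.06% of all genes). The ligand FGF2 stood at 333 and 353 CPM in mTeSR and 259 and 249 CPM in N2B27 (1.35-fold, adjusted p 0.00226), and the receptor FGFR1 at 434 and 462 CPM against 347 and 340 CPM (1.30-fold, adjusted p 0.0265). The 3 genes past the adjusted p-value with the opposite sign were targets or feedback genes of ERK. DUSP6, a phosphatase that inactivates ERK, stood at 48.0 and 57.3 CPM in mTeSR and 107 and 97.3 CPM in N2B27 (1.94-fold, adjusted p 0.000168). EGR1, an immediate early factor, stood at 8.18 and 11.4 CPM against 20.01 and 18.7 CPM (1.97-fold, adjusted p 0.00673), and ETV5, an ETS factor, at 61.9 and 59.7 CPM against 91.5 and 77.6 CPM (1.39-fold, adjusted p 0.0138). DUSP6 crossed the fold limit without mTeSR replicate 2 (-1.09) or N2B27 replicate 2 (-1.02), and EGR1 did so without mTeSR replicate 2 (-1.24), without N2B27 replicate 2 (-1.03) and, by a small margin, with plain library totals. SPRY2 and SPRY4, further feedback inhibitors, had log2 fold changes of 0.13 and -0.07 (adjusted p 0.635 and 0.879).

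BMP2, a BMP ligand expressed in extraembryonic endoderm and mesoderm, was the single call among 17 BMP genes (5.88%, against 2.62% of all genes). It stood at 2.65 and 3.66 CPM in mTeSR and 11.7 and 15.1 CPM in N2B27, 4.21-fold lower (adjusted p 2.22e-05). BMP4 stood at 91.4 and 89.9 CPM in mTeSR and 77.7 and 81.0 CPM in N2B27 (adjusted p 0.421), and the BMP target ID1 at 98.2 and 107 CPM against 91.3 and 80.6 CPM (adjusted p 0.245). Of 22 WNT genes, 2 were called lower (9.09%, against 1.4% of all genes in that direction). SFRP1, a secreted WNT inhibitor, stood at 6.64 and 5.82 CPM in mTeSR and 17.1 and 15.7 CPM in N2B27 (2.63-fold lower, adjusted p 6.97e-05), and WNT5A, a ligand of the non-canonical branch, at 12.4 and 13.4 CPM against 30.8 and 24.8 CPM (2.16-fold lower, adjusted p 0.0135). SFRP2, another secreted inhibitor, had the opposite sign (37.6 and 41.8 CPM against 23.1 and 24 CPM, adjusted p 0.00281, under the fold limit). The canonical target AXIN2 stood at 39.4 and 39.9 CPM in mTeSR and 45.0 and 32.8 CPM in N2B27, overlapping (adjusted p 0.959). The call of WNT5A was lost without mTeSR replicate 1 (adjusted p 0.109), mTeSR replicate 2 (0.103) or N2B27 replicate 1 (0.129).

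Of 10 genes tested of LIF receptor signalling, which supports naive cells, 2 were called lower in mTeSR (20%, against 1.4% of all genes in that direction) and none higher. By the adjusted p-value 1 was higher and 2 lower (30%, against 9.06% of all genes). The list had 3 positive and 7 negative values, with a median of -0.08. LIFR, the receptor chain itself, stood at 14.6 and 12.9 CPM in mTeSR and 31.5 and 35.5 CPM in N2B27 (2.43-fold lower, adjusted p 1.15e-05). BCL3, a regulator of NF-κB that responds to STAT3, stood at 6.19 and 7.11 CPM against 15.2 and 15.7 CPM (2.32-fold lower, adjusted p 0.00752), a call lost without mTeSR replicate 1 (0.0857), mTeSR replicate 2 (0.0595) or N2B27 replicate 2 (0.0572). LIFR rose from day 4 to day 6 by 1.60 on the log2 scale in N2B27 (adjusted p 1.28e-07), and in mTeSR the same difference was 0.75 (adjusted p 0.0216), under the fold limit. The change of the medium difference of LIFR, tested directly, was -0.85 and was not called (adjusted p 0.317). None of 14 Notch genes was called.

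Serum response factor (SRF) binds promoters of actin and other contractile genes and answers actin assembly. Of 18 SRF and contractile genes tested, 2 were called higher and none lower (11.1% called, against 2.62% of all genes and 1.22% in that direction), 3 passed the adjusted p-value, all higher (4.64% of all genes did), and the median was 0.14. ACTC1, cardiac α-actin, stood at 74.5 and 81.0 CPM in mTeSR and 36.9 and 38.9 CPM in N2B27 (2.05-fold higher, adjusted p 8.52e-05). FHL2, a LIM protein coactivator, stood at 19.5 and 22 CPM against 10.8 and 9.67 CPM (2.02-fold higher, adjusted p 0.0209). ACTA1, skeletal α-actin, stood at 93.3 and 92.2 CPM against 59.6 and 63.5 CPM and was under the fold limit (1.51-fold, adjusted p 0.0267). The call of ACTC1 fell at the fold limit without mTeSR replicate 2 (0.98) or N2B27 replicate 1 (1.00). The call of FHL2 was lost without any one of the 4 libraries (adjusted p 0.0626 without mTeSR replicate 1, 0.169 without mTeSR replicate 2, 0.0834 without N2B27 replicate 1 and 0.157 without N2B27 replicate 2) and fell under the fold limit with plain library totals (0.99).

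The promoters of these 3 genes are shown because each holds a CArG box, the motif that SRF binds, within 250 bases before the start of transcription. Each line gives 120 bases of the RefSeq promoter on GRCh38.p14, from 150 to 31 bases before the start, read 5′ to 3′ on the minus strand that carries each of these genes, with the CArG box in capitals. The regions are chr1:229434125-229434244 for ACTA1, chr15:34795580-34795699 for ACTC1 and chr2:105438544-105438663 for FHL2.
ACTA1: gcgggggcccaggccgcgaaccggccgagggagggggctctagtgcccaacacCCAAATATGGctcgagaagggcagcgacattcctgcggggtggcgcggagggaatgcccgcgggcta
ACTC1: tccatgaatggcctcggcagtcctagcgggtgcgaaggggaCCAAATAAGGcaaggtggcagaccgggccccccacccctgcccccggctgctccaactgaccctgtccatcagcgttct
FHL2: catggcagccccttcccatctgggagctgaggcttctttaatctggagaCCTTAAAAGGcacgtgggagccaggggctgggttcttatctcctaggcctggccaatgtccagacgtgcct
The box began 97 bases before the start in ACTA1, 109 bases in ACTC1 and 101 bases in FHL2. It reads as a CArG box on both strands, since its pattern is its own reverse complement. It was found in 1 of 3 RefSeq promoters of ACTC1, in 3 of 4 of FHL2 and in the only one of ACTA1. Of 35116 promoter windows of the same length in RefSeq, 407 held one (1.16%). Of the 18 SRF and contractile genes, 16 had a promoter among these windows and 9 of these held the motif in at least 1 promoter. Among the 9 were all 3 that passed the adjusted p-value. ACTG2, ACTN1, CNN2, FLNA, SRF and TPM4 also held it and did not pass. The 1.16% counts promoters and not genes, and the list was chosen for SRF and contractile genes. Whether the motif goes with the change was therefore not tested. The match describes the sequence only and no binding was measured.

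ATF4 is the transcription factor of the amino acid stress response. Of 23 genes of the ATF4 amino acid response 20 had positive values, 8 passed the adjusted p-value, all higher (34.8%, against 4.64% of all genes in that direction), and 1 was called (4.35%, against 2.62% of all genes), with a median of 0.28. SLC7A11, the light chain of the cystine and glutamate exchanger (chromosome 4, 138164097 to 138242349), stood at 215 and 247 CPM in mTeSR and 119 and 95.5 CPM in N2B27 (2.15-fold higher, adjusted p 5.71e-07). Its heavy chain SLC3A2 stood at 218 and 212 CPM against 163 and 139 CPM (1.42-fold, adjusted p 0.0174). ATF5, a target and relative of ATF4, stood at 69.0 and 75.4 CPM against 38.1 and 34.7 CPM (1.98-fold, adjusted p 0.00017). CHAC1, which degrades glutathione, stood at 157 and 186 CPM against 104 and 103 CPM (1.65-fold, adjusted p 0.00302), and the secreted glycoprotein STC2 at 599 and 690 CPM against 369 and 328 CPM (1.85-fold, adjusted p 0.0018). ASNS, asparagine synthetase, stood at 76.3 and 89.9 CPM against 56.9 and 72.9 CPM (adjusted p 0.461), and TRIB3, a pseudokinase induced by ATF4, at 22.1 and 24.4 CPM against 24.8 and 22.8 CPM (adjusted p 0.952). The log2 fold change of SLC7A11 was 0.96 without N2B27 replicate 2, and ATF5 passed the fold limit without mTeSR replicate 1 (1.05), without N2B27 replicate 1 (1.06) and with no filter (1.00).

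Of 16 NRF2 and redox genes, 2 were called, SLC7A11 and SRXN1, both higher (12.5%, against 1.22% of all genes in that direction). SRXN1, sulfiredoxin, which repairs oxidised peroxiredoxins, stood at 77.0 and 81.5 CPM in mTeSR and 39.6 and 37.9 CPM in N2B27 (2.04-fold higher, adjusted p 0.000468), with a log2 fold change of 0.99 without mTeSR replicate 2. CAT, catalase, had the opposite sign at 8.63 and 11.4 CPM against 19.8 and 16.9 CPM (1.83-fold, adjusted p 0.0119), and passed the fold limit without mTeSR replicate 2 (-1.09).

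Among 212 solute carrier genes tested, 6 were called higher and 3 lower (4.25% called, against 2.62% of all genes), and 24 were higher and 7 lower by the adjusted p-value (14.6%, against 9.06% of all genes). SLC38A1, a sodium-coupled glutamine transporter (chromosome 12, 46183063 to 46270017) was the highest in significance among these. It stood at 288 and 286 CPM in mTeSR and 139 and 128 CPM in N2B27, 2.15-fold higher (log2 fold change 1.10, SE 0.09, adjusted p 1.9e-09). SLC44A2, a choline transporter, stood at 12.2 and 11.9 CPM against 27.5 and 27.2 CPM (2.27-fold lower, adjusted p 0.000932). SLC5A5, the sodium iodide symporter, stood at 6.41 and 9.05 CPM against 16 and 19.3 CPM (2.28-fold lower, adjusted p 0.00604), a call lost without mTeSR replicate 1 (0.109) or N2B27 replicate 2 (0.083). SLC52A3, a riboflavin transporter, stood at 1.33 and 0.431 CPM against 4.38 and 3.22 CPM (4.24-fold lower, adjusted p 0.00158), a call lost without mTeSR replicate 2 (0.127). The other higher calls were SLC7A11, the exchanger described above, SLC46A1, a folate transporter (5.31 and 3.45 CPM against 1.04 and 1.81 CPM, adjusted p 0.0316), SLC2A13, an inositol transporter (9.73 and 12.3 CPM against 3.75 and 4.03 CPM, adjusted p 0.00844), SLC1A4, a neutral amino acid transporter (6.86 and 9.05 CPM against 3.33 and 3.63 CPM, adjusted p 0.0272), and SLC35A2, a UDP-galactose transporter (32.7 and 39 CPM against 21.5 and 14.1 CPM, adjusted p 0.00956). Each of these calls was lost in at least 1 setting. That of SLC46A1 was lost without any one of the 4 libraries, with no filter (0.0509) and with DESeq2 (0.095), and that of SLC1A4 without 3 of the 4 libraries, with no filter (0.057) and with DESeq2 (0.0957). That of SLC2A13 was lost without mTeSR replicate 2 (0.121), N2B27 replicate 1 (0.0757) or N2B27 replicate 2 (0.0691), and that of SLC35A2 without mTeSR replicate 2 (0.135) or N2B27 replicate 2 (0.191) and with plain library totals (log2 fold change 0.99).

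Of the genes that rise with low oxygen, 2 were called higher in mTeSR of 14 tested (14.3%, against 1.22% of all genes in that direction), and 4 were higher and 1 lower by the adjusted p-value, which 4.64% and 4.41% of all genes passed, with a list median of 0.25. ADM, adrenomedullin, a vasoactive peptide (chromosome 11, 10305073 to 10307397), stood at 96.2 and 100 CPM in mTeSR and 47.3 and 44.7 CPM in N2B27 (2.13-fold higher, adjusted p 7.63e-05). ANGPTL4, an inhibitor of lipoprotein lipase that also stands on the list of PPAR targets, stood at 18.1 and 15.7 CPM against 3.54 and 4.84 CPM (4.02-fold higher, adjusted p 0.000723). VEGFA stood at 79.4 and 86.6 CPM against 68.1 and 51.2 CPM (1.39-fold, adjusted p 0.0201) and NDRG1 at 57.3 and 67.7 CPM against 39.0 and 41.3 CPM (1.56-fold, adjusted p 0.0162). None of 21 genes of glycolysis and glucose sensing was called, with 3 higher and 1 lower by the adjusted p-value (19%, against 9.06% of all genes). TXNIP, an inhibitor of glucose uptake, was the lower one, at 126 and 111 CPM in mTeSR against 234 and 191 CPM in N2B27 (log2 fold change -0.85, adjusted p 0.000127, under the fold limit). Among the higher ones were the hexokinase HK2 (179 and 191 CPM against 136 and 93.7 CPM, adjusted p 0.0201) and PFKFB3, which makes the activator of phosphofructokinase (103 and 125 CPM against 74.6 and 67.5 CPM, adjusted p 0.00429).

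None of 33 sterol and fatty acid synthesis genes was called and their median was -0.01. None of 23 cell cycle genes, 15 p53 targets or 8 DNA methylation genes was called. In the p53 list 2 were higher and 4 lower by the adjusted p-value (40% of the list in either direction, against 9.06% of all genes). GDF15, a stress cytokine, stood at 253 and 217 CPM in mTeSR and 367 and 394 CPM in N2B27 (1.62-fold, adjusted p 0.000804) and the cell cycle inhibitor CDKN1A at 58.2 and 56.7 CPM against 80.0 and 89.5 CPM (1.48-fold, adjusted p 0.0361). TNFRSF10B, a death receptor, and TIGAR, a regulator of glycolysis, had the opposite sign, at 68.1 and 70.5 CPM against 44 and 37.1 CPM and 82.3 and 88.4 CPM against 57.5 and 49.6 CPM (adjusted p 0.00228 and 0.000641). FDXR and SESN1 were the others past the adjusted p-value with negative values.

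In matrix and adhesion genes, 2 collagens of 31 tested were called higher and 3 lower (16.1% called, against 2.62% of all genes), with a median of -0.25. COL13A1, a transmembrane collagen, stood at 3.1 and 3.23 CPM in mTeSR and 12.5 and 11.1 CPM in N2B27 (3.70-fold lower, adjusted p 0.00112). COL6A1 and COL6A2, 2 chains of the same collagen VI trimer, were called in opposite directions, at 17.9 and 24.6 CPM against 11 and 8.87 CPM for COL6A1 and 4.65 and 4.53 CPM against 6.88 and 11.9 CPM for COL6A2. Neither call held throughout. That of COL6A1 was lost without mTeSR replicate 2 (adjusted p 0.113) or N2B27 replicate 2 (0.0691), and that of COL6A2 without mTeSR replicate 1, mTeSR replicate 2 or N2B27 replicate 2, with no filter and with DESeq2 (adjusted p from 0.0791 with no filter to 0.434 without N2B27 replicate 2). COL7A1, of anchoring fibrils, was the other higher collagen (17 and 20.3 CPM against 7.29 and 10.9 CPM, adjusted p 0.00648), a call lost without mTeSR replicate 2 (0.111) or N2B27 replicate 1 (0.133). COL22A1 was the other lower one (2.21 and 3.88 CPM against 7.92 and 12.1 CPM, adjusted p 0.00394), a call lost without mTeSR replicate 1 (0.0905) or N2B27 replicate 2 (0.0943). ITGB2, the β2 integrin of leukocytes and the single call among 16 integrin genes (6.25%), stood at 4.203 and 3.66 CPM against 12.5 and 10.7 CPM (2.93-fold lower, adjusted p 0.00974). That call was lost without mTeSR replicate 1 (0.0619), mTeSR replicate 2 (0.126) or N2B27 replicate 1 (0.0764). CDH11, a mesenchymal cadherin, stood at 11.3 and 8.19 CPM in mTeSR and 26.0 and 29.8 CPM in N2B27 (2.87-fold lower, adjusted p 6.39e-05). It was the single call among 18 epithelial and mesenchymal adhesion genes (5.56%, against 2.62% of all genes). That list had 7 positive and 11 negative values and a median of -0.03. Its member VIM, a mesenchymal filament, had a log2 fold change of 0.61 (adjusted p 0.0651). The epithelial cadherin CDH1 stood at 307 and 362 CPM against 408 and 310 CPM (adjusted p 0.709). CLDN1, a tight junction claudin, stood at 10.2 and 9.70 CPM against 2.50 and 3.63 CPM (3.22-fold higher, adjusted p 0.00136).

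Some further lists held 1 or 2 called genes each. Over all genes 2.62% were called, 1.22% higher and 1.4% lower. HHIP, an inhibitor of Hedgehog ligands, was higher in mTeSR (3.32 and 2.16 CPM against 0 and 0.806 CPM, adjusted p 0.0122), as the single call among 11 Hedgehog genes (9.09%), and the call was lost without mTeSR replicate 1 (0.111) or N2B27 replicate 1 (0.172). CD36, a fatty acid receptor, was with ANGPTL4 one of 2 genes called, both higher, among 10 of PPAR and fatty acid oxidation (20%). CD36 stood at 2.65 and 2.59 CPM against 0.625 and 1.01 CPM (adjusted p 0.0426), and its call was lost without any one of the 4 libraries, with no filter (0.161), with the libraries of Ex1 alone (0.0662) and with the 4 compared libraries alone (0.0726). RARG, a retinoic acid receptor and the single call among 12 retinoid genes (8.33%), stood at 4.65 and 3.23 CPM against 9.38 and 11.1 CPM (2.59-fold lower, adjusted p 0.0158), a call lost without mTeSR replicate 2 (0.205) or N2B27 replicate 2 (0.12).

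Of 20 axon guidance and Eph genes 1 was called in each direction (10% called, against 2.62% of all genes). EPHA2, an Eph receptor, stood at 26.8 and 25 CPM in mTeSR against 11.9 and 6.65 CPM in N2B27 (2.80-fold higher, adjusted p 0.0017), and the call was lost without N2B27 replicate 2 (0.0791). EFNA1, an ephrin ligand, stood at 7.96 and 11 CPM against 18.1 and 20.4 CPM (2.03-fold lower, adjusted p 0.000882), and its log2 fold change was -0.81 without mTeSR replicate 1 and -0.93 without N2B27 replicate 2. Among 69 potassium, sodium and calcium channel genes 2 were called (2.9%, against 2.62% of all genes). KCNAB2, a potassium channel subunit, stood at 4.87 and 4.31 CPM against 1.25 and 2.02 CPM (adjusted p 0.0487), a call lost in 8 settings, among them leaving out any one of the 4 libraries. CACNB3, a calcium channel subunit, stood at 2.65 and 3.88 CPM against 6.67 and 7.25 CPM (adjusted p 0.0146), a call lost without mTeSR replicate 1, N2B27 replicate 1 or N2B27 replicate 2, with no filter (0.108) and with DESeq2 (0.0822).

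The largest changes among genes that reached 20 CPM included signalling molecules outside these lists. NTS, the precursor of the neuropeptide neurotensin (chromosome 12, 85874295 to 85882992), stood at 18.4 and 23.9 CPM in mTeSR and 97.9 and 96.1 CPM in N2B27, 4.58-fold lower (adjusted p 9.68e-10). ERBB4, a receptor tyrosine kinase for neuregulins (chromosome 2, 211375717 to 212538841), stood at 3.76 and 5.60 CPM against 26.9 and 21.4 CPM (5.11-fold lower, adjusted p 1.11e-05). CD70, the ligand of CD27, stood at 7.74 and 3.45 CPM against 25.8 and 27.8 CPM (4.79-fold lower, adjusted p 1.13e-05).

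Further down the same ranking stood RHOBTB3 (3.59-fold lower), LGALS1 (3.48-fold lower), the carbohydrate-binding galectin-1, HCLS1 (3.22-fold lower), a cortactin relative of blood cells, TNFAIP8L1 (2.78-fold lower), ZC3H6 (3.49-fold lower), SNORD13 (3.48-fold lower), a small nucleolar RNA, BTG2 (2.69-fold lower), an antiproliferative gene, and the clone-named AL591742.2 (2.88-fold lower). HBA2, an α-globin gene, stood at 7.96 and 8.19 CPM in mTeSR and 28.1 and 27.2 CPM in N2B27 (3.42-fold lower, adjusted p 1.6e-05), though its reads can be shared with the near-identical HBA1. ALPG, the germ cell alkaline phosphatase (chromosome 2, 232406844 to 232410714), stood at 46.2 and 35.6 CPM against 104 and 124 CPM (2.78-fold lower, adjusted p 3.67e-07), with the same reservation for its close relatives ALPP and ALPI.

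The largest rise at this level was that of AC022784.1, known only by its clone name, at 19 and 22.8 CPM in mTeSR and 1.88 and 1.41 CPM in N2B27 (12.6-fold higher, adjusted p 1.25e-06). MAL2, a membrane protein of epithelial vesicle transport (chromosome 8, 119165034 to 119245673), stood at 81.8 and 71.1 CPM against 24 and 24 CPM (3.19-fold higher, adjusted p 5.19e-09). LINC00458, a long noncoding RNA (chromosome 13, 53950255 to 54270397), stood at 69.5 and 66.2 CPM against 21.9 and 21.2 CPM (3.15-fold higher, adjusted p 2.22e-08). PLAU, the urokinase plasminogen activator, stood at 43.4 and 42.0 CPM against 15 and 9.87 CPM (3.43-fold higher, adjusted p 0.000525).

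MX1, an interferon-induced GTPase, stood at 22.6 and 20.5 CPM in mTeSR and 7.29 and 5.24 CPM in N2B27 (3.43-fold higher, adjusted p 1.31e-05). Of 20 interferon and immune genes tested, a list without MX1, 10 had positive and 10 negative values, with a median of 0.02, and 2 were called lower (10%, against 1.4% of all genes in that direction) and none higher. IFI16, a DNA sensor, stood at 2.21 and 4.53 CPM in mTeSR against 12.7 and 13.1 CPM in N2B27 (3.79-fold lower, adjusted p 2.67e-05). IFIT1, an RNA-binding protein induced by interferon, stood at 1.77 and 2.59 CPM against 7.92 and 9.07 CPM (3.86-fold lower, adjusted p 0.0244), a call lost without any one of the 4 libraries (adjusted p from 0.0738 to 0.183). BST2, or tetherin, chosen after its values were seen, stood at 5.75 and 2.80 CPM against 17.5 and 20.6 CPM (4.44-fold lower, adjusted p 0.000225). INHBE, an inhibin subunit that was not on the Activin and Nodal list, stood at 22.6 and 23.1 CPM against 6.88 and 7.46 CPM (3.17-fold higher, adjusted p 1.98e-05). The rest of the 15 largest rises were GALNS (2.96-fold), a lysosomal sulfatase, MOCOS (3.25-fold), which activates molybdenum enzymes, TMEM38A (2.80-fold), a cation channel of the endoplasmic reticulum, ZNF775 (3.32-fold), a zinc finger gene, GAU1 (3.22-fold) and the clone-named AL117378.1 (3.37-fold) and AC012321.1 (3.03-fold), together with KLF4 and NEFM. AC012321.1 was no longer called without mTeSR replicate 2 or N2B27 replicate 2.

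**Figure D3:**
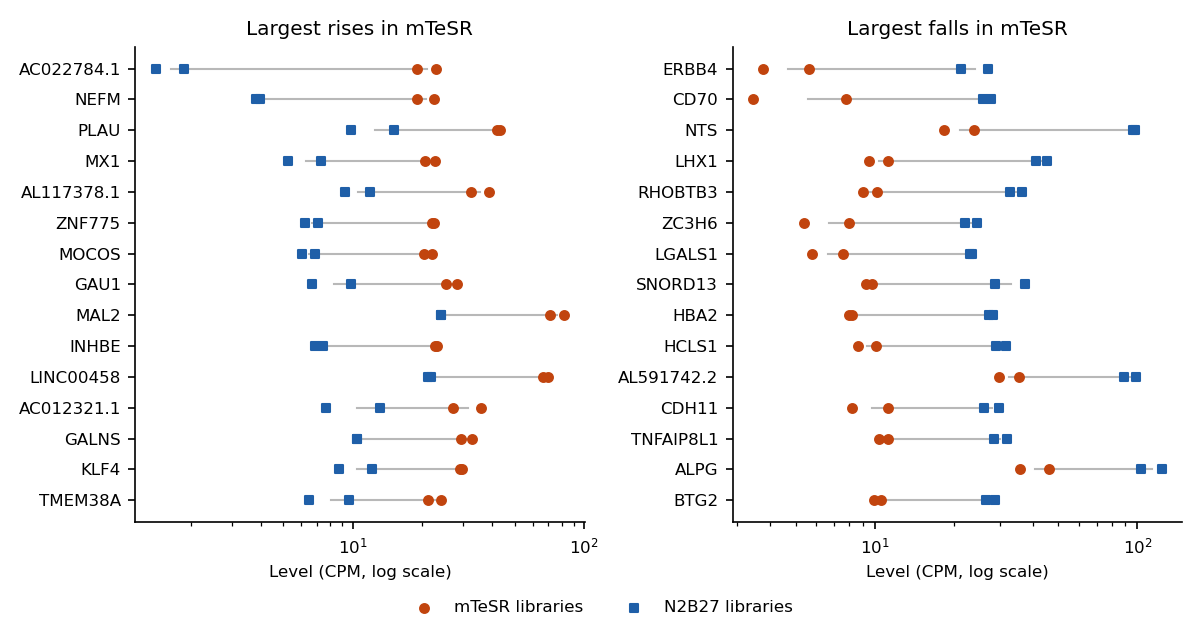
Level in each library (CPM, log scale) of the 15 largest rises (left) and 15 largest falls (right) in mTeSR among called genes of at least 20 CPM. Red circles are the mTeSR libraries, blue squares the N2B27 libraries and grey lines join the group means; no gene shows an overlap between the media, as the rule for these genes required.

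Among genes with a symbol in the GENCODE annotation, long noncoding RNAs were more frequent among those called than among those tested. Of 383 such genes called, 31 were long noncoding RNAs (8.09%), against 556 of 14533 such genes tested (3.83%). The rest of the 437 called and 16674 tested genes, the clone-named AC022784.1 among them, had no match and are not in these shares. Among zinc finger genes named ZNF, 4 were called higher and 7 lower of 441 tested (2.49%, against 2.62% of all genes). Beside ZNF775, the higher ones were ZNF696 (2.46-fold), ZNF740 (2.04-fold) and ZNF316 (2.01-fold). Among the lower ones were ZNF34 (2.79-fold), ZNF440 (2.69-fold), ZNF723 (2.12-fold) and ZNF625 (2.09-fold), and also ZNF454 and ZNF699, which stood at 0.664 and 0.216 CPM and at 0.221 and 0.216 CPM in mTeSR, against 2.29 and 2.62 CPM and 3.33 and 1.01 CPM in N2B27. Each of these calls other than that of ZNF775 was lost without at least 1 library. None of 16 HOX genes was called, with 14 negative values and a median of -0.67. None of the 84 cytosolic ribosomal protein genes or of the 13 mitochondrial genes was called.

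The days on either side were sampled in libraries of their own, in which 1.58% of all genes were called at day 4 and 3.8% at day 8. Of the 204 genes called higher at day 6, 190 had the same sign at day 4 (93.1%) and 183 at day 8 (89.7%), against 50.3% and 49.2% of all genes with a positive value. At day 4, 55 of the 204 were called in the same direction (27%, which is 40.7% of the 135 genes called higher that day, where 0.81% of all genes were), and at day 8 68 (33.3%, or 24.7% of the 275 called higher, where 1.65% were). Of the 233 genes called lower, 203 had the same sign at day 4 (87.1%) and 217 at day 8 (93.1%). Of these, 48 were called lower at day 4 (20.6% of the 233 and 37.5% of 128 called, against 0.768% of all genes) and 71 at day 8 (30.5% of the 233 and 19.8% of 359 called, against 2.15% of all genes). None was called in the opposite direction on either day.

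Of the 204 genes called higher and 233 called lower at day 6, among 16674 tested, 26 and 17 were called in the same direction on days 4, 6 and 8 alike. Among the 26 higher genes were AC022784.1, LINC00458, MAL2, NEFM, ZNF775 and CLDN1 and, chosen after their values were seen, HPAT5, LINC01356, SPON1 and RBM46. The day 6 log2 fold change of SPON1 was 0.92 without mTeSR replicate 2. That of RBM46 was 0.77 without mTeSR replicate 1 and 0.86 without N2B27 replicate 2. Among the 17 lower were NTS, CDH11, HBA2, HCLS1, IFI16, SNORD13 and SLC44A2 and, chosen in the same way, BST2, AURKC, FAM107A, IGFBP7 and POLR3GL. The day 6 call of AURKC was lost without mTeSR replicate 1 (log2 fold change -1.11) and that of POLR3GL without mTeSR replicate 2 (-0.99). LINC00458 was steady in size, with log2 fold changes of 1.70 at day 4, 1.65 at day 6 and 1.56 at day 8. HPAT5 stood at 101 and 98.5 CPM in mTeSR and 35.2 and 40.9 CPM in N2B27 at day 6 (2.61-fold higher, adjusted p 3.67e-07).

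**Figure D4:**
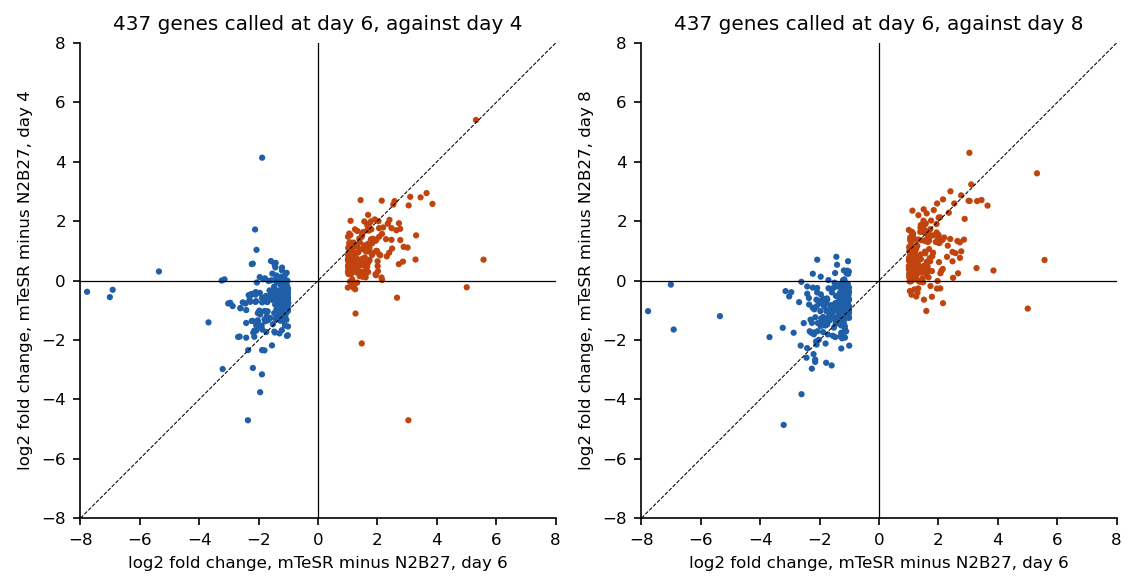
Log2 fold change of mTeSR minus N2B27 for the 437 genes called at day 6 (horizontal axis) against the same difference at day 4 (left) and day 8 (right), on log2 scales. Red points were called higher at day 6 and blue points lower, the dashed line marks equal values, and most points lie in the quadrants of equal sign: 190 of 204 and 203 of 233 at day 4, 183 of 204 and 217 of 233 at day 8.

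Called at day 6 and at neither day 4 nor day 8 were 107 higher and 131 lower genes. The difference between media itself differed from day 4 in 2 of them and from day 8 in 8, and from both in none. Over all genes, the medium difference at day 6 differed from that at day 4 in 28 (0.168%) and from that at day 8 in 51 (0.306%). Without one day 6 library these counts went as low as 5 for day 4, without mTeSR replicate 2, and 21 for day 8, without N2B27 replicate 2. They were 8 without N2B27 replicate 2 and 16 without mTeSR replicate 1 for day 4, and 24 without mTeSR replicate 2 and 22 without mTeSR replicate 1 for day 8.

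Of 22 Activin and Nodal genes, NODAL, LEFTY1 and LEFTY2 were called in the change of the medium difference from day 4 to day 6, against 0.168% of all genes. LEFTY2 stood at 2.59 and 5.53 CPM in mTeSR and 52.5 and 59.3 CPM in N2B27 at day 4, and the difference between media rose by 4.13 on the log2 scale to day 6 (SE 0.42, adjusted p 6.06e-07). LEFTY1 stood at 40.9 and 43.3 CPM in mTeSR and 131 and 129 CPM in N2B27 at day 4 (a change of 1.60 to day 6, adjusted p 0.0028). NODAL stood at 94.8 and 118 CPM against 168 and 181 CPM at day 4 (a change of 1.03, adjusted p 0.0456). SP5, a transcription factor downstream of WNT, stood at 6.82 and 8.98 CPM against 24.1 and 25.6 CPM at day 4 and at 96.4 and 108 CPM against 88.8 and 87.0 CPM at day 6 (a change of 1.87, adjusted p 0.0236). In N2B27, LEFTY2 differed from day 4 to day 6 by -0.75 (adjusted p 0.0313) and in mTeSR it rose by 3.38 (adjusted p 2.63e-08). The call of NODAL was lost without any one of the day 6 libraries (adjusted p from 0.129 to 0.188) and with plain library totals (0.0523), and that of SP5 without mTeSR replicate 2 (0.145) or N2B27 replicate 2 (0.117).

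Of 21 genes of glycolysis and glucose sensing, 3 were called in the change of the medium difference from day 4 (PDK1, HK2 and PFKFB3, against 0.168% of all genes), and only PDK1 kept the call in every alternative run. PDK1, the kinase that shuts pyruvate dehydrogenase, stood at 12.2 and 13.8 CPM in mTeSR and 47.1 and 48.7 CPM in N2B27 at day 4, and at 47.6 and 51.9 CPM against 63.6 and 50.4 CPM at day 6, where the media overlapped (a change of 1.68, SE 0.28, adjusted p 0.00354). SLC16A3, the lactate exporter MCT4, had a log2 fold change of -1.45 at day 4, 0.36 at day 6 and 1.70 at day 8, with 60.6 and 70.0 CPM in mTeSR and 45.0 and 56.8 CPM in N2B27 at day 6. HK2 and PFKFB3 changed by 1.21 and 1.08 between days 4 and 6 (adjusted p 0.0477 and 0.0307). The calls depended on single libraries for SLC16A3 (adjusted p 0.145 without mTeSR replicate 2 and 0.0655 without N2B27 replicate 1), for HK2 (0.118 without mTeSR replicate 1, 0.257 without mTeSR replicate 2 and 0.395 without N2B27 replicate 2, and 0.0526 with plain library totals) and for PFKFB3 (0.257 without mTeSR replicate 2, 0.0532 without N2B27 replicate 1 and 0.162 without N2B27 replicate 2).

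VIM, the intermediate filament of mesenchymal and primed cells, moved in the opposite sense. It stood at 55.3 and 53.6 CPM in mTeSR and 9.53 and 10.8 CPM in N2B27 at day 4, and at 56.2 and 56.5 CPM against 42.3 and 31.6 CPM at day 6, so that the log2 fold change fell by 1.81 (adjusted p 0.011). From day 4 to day 6 VIM rose by 1.86 in N2B27 (adjusted p 4.75e-06) and differed by 0.05 in mTeSR (adjusted p 0.921). The call was lost without mTeSR replicate 2 (0.071) or N2B27 replicate 1 (0.0626).

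The log2 fold change of mTeSR minus N2B27 was lower at day 8 than at day 6 for the following genes. Of 18 SRF and contractile genes, ACTC1 and ACTA1 were called in this change, against 0.306% of all genes, and ACTA1 lost the call without any one day 6 library (adjusted p from 0.0605 to 0.073). ACTC1 stood at 47.8 and 33.6 CPM in mTeSR and 51.8 and 52.4 CPM in N2B27 at day 8, and its log2 fold change was 1.39 larger at day 6 than at day 8 (SE 0.23, adjusted p 0.00205). ADM stood at 68.1 and 75 CPM against 112 and 87.6 CPM at day 8 (1.57 larger at day 6, adjusted p 0.000865), and ATF5 at 42.9 and 42.5 CPM against 54.6 and 58.7 CPM (1.40 larger, adjusted p 0.00186). TRIB3 was near equal at day 6 and stood at 11.7 and 12.6 CPM in mTeSR and 35.5 and 44.3 CPM in N2B27 at day 8 (1.69 larger at day 6, adjusted p 0.00407). These 4 differences held in all 9 alternatives run for them.

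ANKRD1, a muscle ankyrin protein and target of YAP, stood at 3.54 and 3.45 CPM in mTeSR and 7.29 and 7.66 CPM in N2B27 at day 6 (adjusted p 0.0523), and at 1.36 and 1.68 CPM against 43.4 and 33.8 CPM at day 8 (3.55 larger at day 6, adjusted p 0.00163). It was called at day 6 with plain library totals (-1.12) and when the 4 compared libraries were fitted by themselves (-1.08). GATA3, a factor of trophectoderm and amnion, stood at 12.8 and 12.7 CPM against 18.1 and 18.1 CPM at day 6 (adjusted p 0.213) and at 4.89 and 5.32 CPM against 39.4 and 34.0 CPM at day 8 (2.33 larger at day 6, adjusted p 0.0017).

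**Figure D5:**
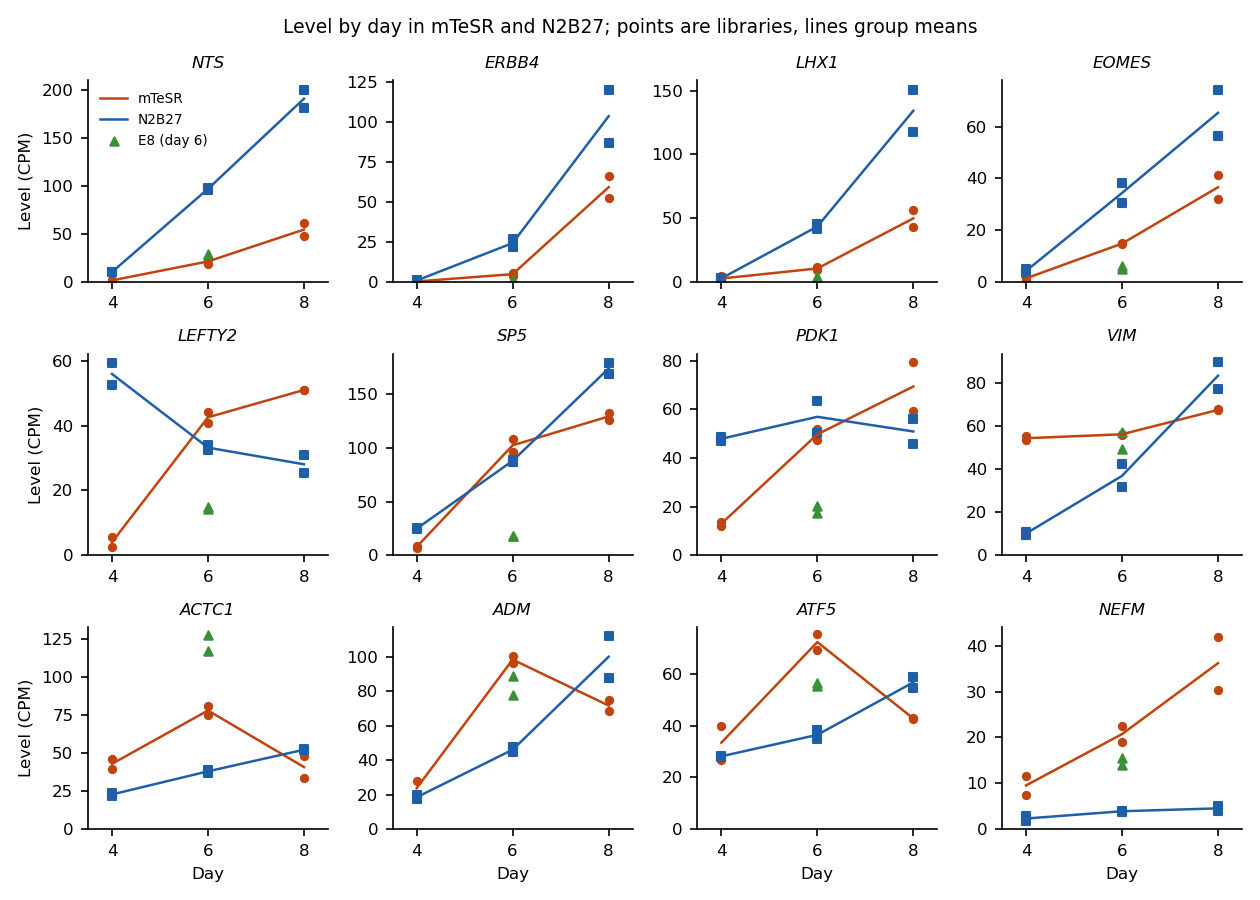
Level (CPM) of 12 genes at days 4, 6 and 8 in mTeSR (red circles) and N2B27 (blue squares), and in E8 at day 6 (green triangles). Points are libraries (2 per medium and day), lines join group means and each panel starts at 0; NTS and LHX1 lie lower in mTeSR at days 6 and 8, the media lie closer at day 6 than at day 4 for LEFTY2 and PDK1, and ACTC1, ADM and ATF5 lie above N2B27 at day 6 and below it at day 8.

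Both sets of called genes were set against the change over time within each medium. Of the 233 lower in mTeSR, 67 were called higher and 9 lower from day 4 to day 8 within N2B27, where 5.78% of all genes were called higher and 1.73% lower, and 67 higher and 12 lower within mTeSR, where 6.46% and 2.79% were. Of the 204 higher in mTeSR, 35 were called higher (17.2%) and 13 lower from day 4 to day 8 within N2B27, and 39 higher (19.1%) and 17 lower within mTeSR. Neither of these 2 comparisons used a day 6 library. NTS rose in N2B27 from 10.4 and 9.68 CPM at day 4 to 201 and 182 CPM at day 8, and in mTeSR from 1.41 and 1.15 CPM to 61.6 and 47.3 CPM. ERBB4 stood at 52.4 and 65.8 CPM in mTeSR and 120 and 86.9 CPM in N2B27 at day 8, after 0 to 1.04 CPM in the 4 libraries of day 4. SOX17 reached 35.8 and 35.3 CPM in mTeSR and 58.4 and 63.0 CPM in N2B27 at day 8.

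E8, the other commercial medium of the study, was sampled at day 6 in 2 libraries, and its comparisons share libraries with that of mTeSR and N2B27. Between mTeSR and E8 184 genes were called (1.1%), and between E8 and N2B27 881 (5.28%). The count for mTeSR and E8 was 104 to 117 when any one of these 4 libraries was left out (115 without mTeSR replicate 1, 104 without mTeSR replicate 2, 117 without E8 replicate 1 and 106 without E8 replicate 2). LHX1 stood at 3.86 and 3.42 CPM in E8 against 9.51 and 11.2 CPM in mTeSR (adjusted p 0.0524). EOMES stood at 5.07 and 6.15 CPM in E8, 2.62-fold lower than in mTeSR (adjusted p 0.0105), and SOX17 at 0.725 and 0.683 CPM, near the floor (adjusted p 0.00541). MIXL1 stood at 14.7 and 13.0 CPM in E8, 4.66-fold lower than in mTeSR (adjusted p 3.7e-08).

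Other genes described above were also measured in E8. KLF4 stood at 43.5 and 41.0 CPM in E8 against 29.2 and 29.7 CPM in mTeSR (adjusted p 0.135), and LINC00458 at 77.5 and 79.9 CPM against 69.5 and 66.2 CPM (adjusted p 0.544). SLC38A1 stood at 233 and 269 CPM in E8 (adjusted p 0.33) and SLC7A11 at 186 and 203 CPM (adjusted p 0.368). ACTA1 stood at 234 and 228 CPM in E8, 2.49-fold above its 93.3 and 92.2 CPM in mTeSR (adjusted p 3.27e-06). ANGPTL4 stood at 6.04 and 2.28 CPM in E8 against 18.1 and 15.7 CPM in mTeSR (4.08-fold higher in mTeSR, adjusted p 0.00128). PDK1 stood at 20.3 and 17.3 CPM in E8 against 47.6 and 51.9 CPM in mTeSR (2.65-fold higher in mTeSR, adjusted p 3.5e-05).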

How the data were processed

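RNA of 38 libraries of naive Shef6 cells and their progeny was sequenced by QuantSeq 3′ mRNA-seq. The deposited values are whole-number gene counts without normalisation, which the authors made before deposit. The submitters' processing notes name the nf-core/rnaseq pipeline with Salmon 1.9.0, STAR 2.7.10a, FastQC 0.11.9, tximport and hg38. The strand setting of the counting was not given in the sources used here, so overlapping and antisense genes such as GAU1 are uncertain.

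Counts were used as deposited. Of 57133 genes, 16674 passed edgeR's filterByExpr and held 99.6% of counts. TMM scaling and quasi-likelihood tests (edgeR 4.0.16 in R 4.3.3, with limma 3.58.1) were fitted to all libraries by group, and p-values were Benjamini-Hochberg adjusted over all genes tested. With 2 libraries per group an exact permutation test of a single value cannot give a p-value below 0.333. The floor of 3 counts covers counting error only.

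The comparison described and its gene lists were chosen with earlier results of these data known, while the libraries of each group were taken by their labels. Genes were named by a fixed rule: up to 6 called genes per list and direction, and the 15 largest rises and falls among called genes of at least 20 CPM whose libraries did not overlap, with other list members chosen for their roles. CCN1 and CCN2 were read under their older symbols CYR61 and CTGF. The contrasts of day 8 with day 4 were added after the data were seen. Alternatives were other scalings and filters, DESeq2 1.42.0, fewer libraries, a replicate block and leaving out each library. The scripts were tested on simulated data. A few genes are not reported here.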

Additional observations from a re-analysis of the deposited data

Results flagged for a closer look

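These results were marked because a test of the difference between days found that the contrast of mTeSR with N2B27 at day 6 differed from the same contrast on another day. This held for 28 genes against day 4 and for 51 against day 8. Values are differences of log2 fold changes, day 6 minus the other day.

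Against day 4, the change was positive for LEFTY2 (4.13), SP5 (1.87), SLC16A3 (1.81), PDK1 (1.68), LEFTY1 (1.60), HK2 (1.21), PFKFB3 (1.08), NODAL (1.03) and KDM3A, a histone demethylase (1.02). It was negative for PLXNA2, a semaphorin receptor (-2.58), ZNF440 (-2.02) and VIM (-1.81).

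Against day 8, the change was positive for ANKRD1 (3.55), GATA3 (2.33), PLAU (2.32), TRIB3 (1.69), ADM (1.57), INHBE (1.56), ATF5 (1.40), ACTC1 (1.39), ENPEP, an aminopeptidase (1.37), ACTA1 (1.22), HES1, a Notch target (1.13), CDH13 (1.09) and ID2, a BMP target (1.05). It was negative for SLC52A3 (-2.78), PFKFB4 (-1.82), ALDOC, an aldolase (-1.41), SLC16A3 (-1.34) and DLL3, a Notch ligand (-1.16).

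Of these, LEFTY1, LEFTY2 and PDK1 against day 4, and ACTC1, ADM, ALDOC, ANKRD1, ATF5, GATA3 and TRIB3 against day 8, were called in every alternative run for them. Leaving out any one day 6 library ended the call of NODAL and ZNF440 against day 4, and of ACTA1, CDH13, DLL3, ENPEP, HES1, ID2 and INHBE against day 8. DESeq2 also ended those of ENPEP (adjusted p 0.167), CDH13 (0.0511), INHBE (0.0816) and SLC52A3 (0.0549). Each of the others lost its call without at least 1 day 6 library.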

How the results depend on the processing

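The count of 437 genes was 445 with RLE scaling, 432 with plain library totals, 442 with a filter of more than 10 counts, 465 with no filter, 434 with a replicate block, 393 with the libraries of Ex1, 610 with the 4 compared libraries alone and 300 with DESeq2. It was 656 with a replicate block in the fit to the 4 compared libraries. The replicate numbers did not pair the libraries (correlation of deviations 0.0104 over 7185 genes).

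Leaving out 1 library gave 221 to 319 genes at day 6, 5 to 20 for the difference from day 4, 21 to 36 for that from day 8 and 104 to 117 between mTeSR and E8, where DESeq2 gave 122. LEFTY1, which was not called, ranged from -0.098 to 0.041 and turned sign without mTeSR replicate 1 or N2B27 replicate 1 (0.040).

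Of 85 genes that met the naming rule 42 were called under every alternative run for them, 32 lost the call only when a library was left out and 11 in an alternative with all libraries. Of 31 differences between days 11 held under every alternative run for them, and 7 were lost in one with all day 6 libraries. Causes were not tested.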
